A study of Homo sapiens with 12 samples.

Results

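NPR3, ARSJ, PRUNE2, TPD52L1 and CD248 are 5 genes with a large rise in BT549 cells after ERβ2 siRNA, taken from 17958 genes with a symbol of their own on the array. The siRNA arrays themselves chose them, so their rise there is a description and was not tested. The 5 genes are read by 7 transcript clusters, each a group of probes that yields a single value on an array, with 2 clusters each for NPR3 and PRUNE2. BT549 is an established triple-negative breast cancer cell line. It was transfected with control siRNA or with siRNA targeting ERβ2 and taken for RNA at 48 h, or with the empty pcDNA3 vector (EV) or the same vector carrying FLAG-tagged ERβ2 cDNA and taken at 24 h, with 3 biological replicates in each of the 4 groups and 12 Affymetrix Human Gene 1.1 ST arrays in all. ERβ2 is a splice variant of estrogen receptor β that keeps the DNA-binding domain and lacks an intact ligand-binding domain. The siRNA and the plasmids went in with different transfection reagents, and the ERβ2 from the plasmid came on top of the receptor that the cells make themselves. More than 1 siRNA set against ERβ2 exists in the study, and which one was put on the arrays is not stated.

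The 5 genes encode proteins with different tasks. NPR3 is the clearance receptor of the natriuretic peptides, hormones that relax vessels and drive salt excretion through receptors that make cyclic GMP. NPR3 binds the same peptides, has no cyclase of its own, and takes them into the cell for degradation. ARSJ is an arylsulfatase, one of the enzymes that split sulfate esters. PRUNE2 is a large protein with a BCH domain, a lipid- and GTPase-binding fold shared with BNIP2. TPD52L1, also called D53, is a small coiled-coil protein of the tumor protein D52 family, whose members pair with each other and take part in vesicle traffic. CD248, also called endosialin, is a C-type lectin of the cell surface known from pericytes, fibroblasts and the stroma of tumors.

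The values are log2 values that the authors made by RMA, so a difference of 1 is a 2-fold difference. A signal is compared between arrays within a cluster and not between clusters, apart from rough readings against the array median. Array medians, taken over all 33297 clusters whether named or not, lay between 5.04 and 5.14. VIM, a filament protein of mesenchymal cells such as BT549, had log2 values between 11.99 and 12.32, while the epithelial gene CDH1 (3.63 to 4.11) and the estrogen receptor α gene ESR1 (3.44 to 3.93 on cluster 8122840) lay below the array medians. ESR2, the gene of ERβ with all its isoforms, read 4.03, 3.88 and 4.05 with control siRNA against 4.12, 3.99 and 3.80 with ERβ2 siRNA, and 4.08, 3.93 and 4.01 with EV against 4.35, 4.72 and 4.37 with the ERβ2 plasmid. All these ESR2 values lay below the array medians. The siRNA groups overlapped for ESR2, so it gives no check of the siRNA labels. The paper reports lower ERβ2 mRNA by qPCR after ERβ2 siRNA in BT549. The plasmid groups did not overlap for ESR2 (log2 change 0.47, adjusted p = 0.403 from limma, standard error 0.10). EV replicate 2 had the lowest mean correlation with the other arrays of its group (0.997). It also had the highest value of the EV group in 6 of the 7 member clusters. Values without it are given beside the results it moved most. A p-value here sets a difference between groups against the spread among 3 arrays per group, and limma draws that spread partly from all clusters.

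**Figure D1:**
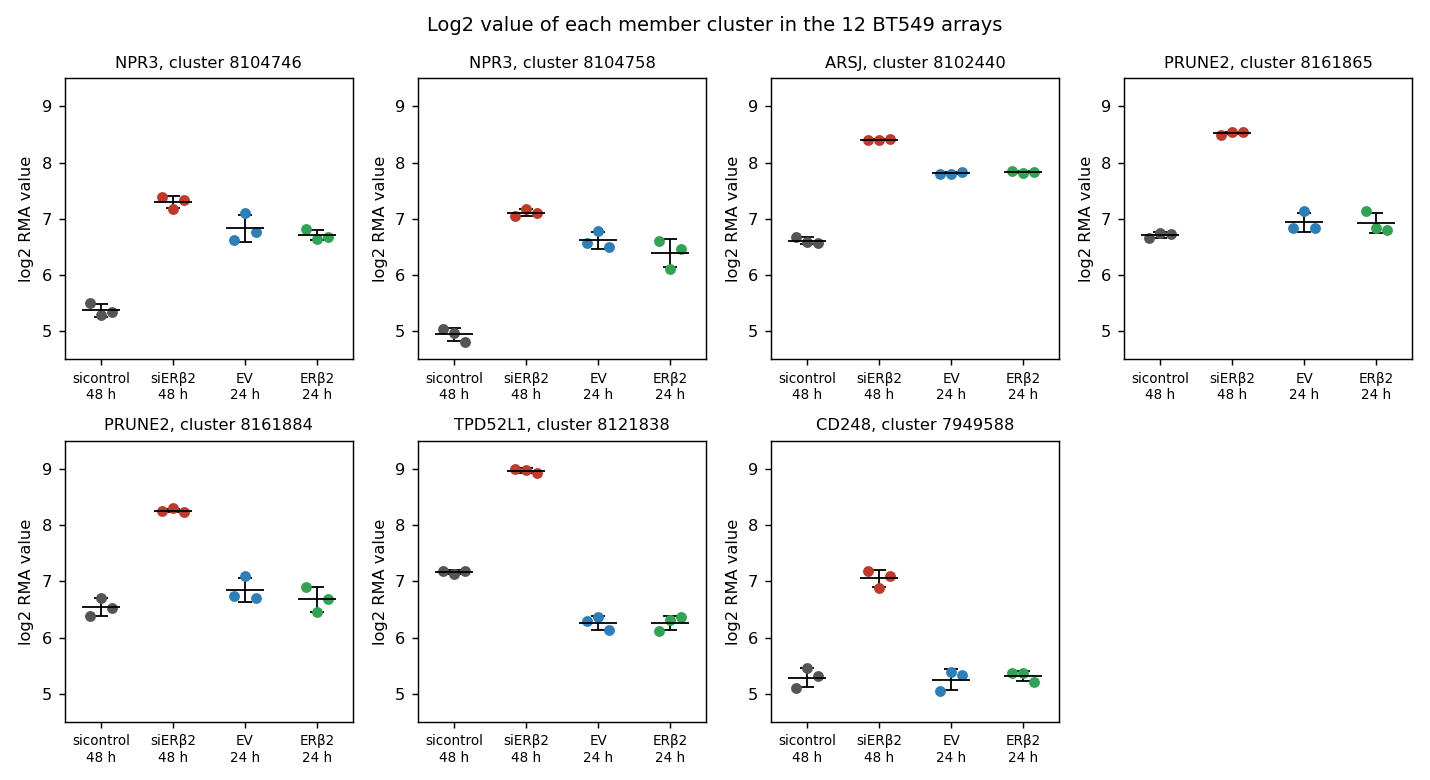
Log2 RMA value (y axis, the same range in every panel) of each of the 7 member clusters in the 12 arrays, with 3 points per group and a bar and whiskers for the mean and SD. The ERβ2 siRNA arrays lie above all other arrays in all 7 clusters, the EV and ERβ2 plasmid arrays overlap in all 7, and the level of these plasmid arrays against control siRNA differs from gene to gene.

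In all 7 clusters the 3 ERβ2 siRNA arrays lay above the 9 other arrays. The share of all clusters for which this held was not counted. By a weaker criterion, 20.7% of all clusters had every ERβ2 siRNA array above every control siRNA array. Against control siRNA the rise ran from 1.72 to 2.17 on the log2 scale, with a median of 1.81 over the 7 clusters and of −0.03 over all 19181 clusters with 1 symbol. All 7 clusters met the criteria of a call, which were a limma p under 0.05, a p after Benjamini-Hochberg adjustment no higher than 0.1, and a change of 1.5-fold or more. Of all clusters, 3.20% were called higher, and nothing follows from the count of 7, since this comparison chose the genes. By size the rises ranked 3 and 5 (NPR3), 7 and 13 (PRUNE2), 9 (TPD52L1), 10 (ARSJ) and 11 (CD248) among the clusters. With the ERβ2 plasmid none of the 7 clusters was called against EV, in a comparison where 0.00% of all clusters were called and ESR2 itself was not, and the level with EV differed widely between the genes. With EV, NPR3 and ARSJ lay well above control siRNA, PRUNE2 and CD248 close to it and TPD52L1 below it.

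NPR3 was higher with ERβ2 siRNA than in any other group, and the EV and ERβ2 plasmid arrays also lay far above control siRNA. On cluster 8104746 the log2 value of NPR3 was 5.49, 5.28 and 5.33 with control siRNA and 7.39, 7.18 and 7.33 with ERβ2 siRNA. It was 6.62, 7.10 and 6.76 with EV and 6.81, 6.63 and 6.68 with the ERβ2 plasmid. Every array of the other 3 groups lay above every control siRNA array, and the highest EV array, replicate 2, came within 0.08 of the lowest ERβ2 siRNA array (0.42 without that replicate). The change with ERβ2 siRNA was 1.93 (standard error 0.08), a 3.82-fold rise, and the change from control siRNA to EV was 1.46 (standard error 0.12), or 2.75-fold. The order of the group means was ERβ2 siRNA, EV, ERβ2 plasmid and control siRNA, and the neighbours EV and ERβ2 plasmid did not differ beyond their spread.

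The second cluster of NPR3, 8104758, gave the same order. Its log2 values were 5.04, 4.97 and 4.81 with control siRNA, 7.05, 7.17 and 7.11 with ERβ2 siRNA, 6.56, 6.79 and 6.49 with EV, and 6.60, 6.11 and 6.46 with the ERβ2 plasmid. No EV array reached the ERβ2 siRNA arrays on this cluster, and none came down to the control siRNA arrays. The rise with ERβ2 siRNA was 2.17 (standard error 0.07) and that from control siRNA to EV was 1.67 (standard error 0.10). Without EV replicate 2 the change from control siRNA to EV was 1.32 on cluster 8104746 and 1.58 on cluster 8104758. With each profile set to 0 at its control siRNA mean, both NPR3 clusters differed by a root mean square of 0.21 on the log2 scale over the 12 arrays. The clusters share the gene and the RNA, so they are not independent measurements.

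The bases before the start of NPR3 are shown as a description. The members were chosen for their rise with ERβ2 siRNA, so that shared rise is no finding about their promoters. Only some of the members also differed between EV and control siRNA. The sequences come from RefSeq promoter records of build GRCh38.p14, cut to the 250 bases before the annotated start and written 5′ to 3′ on the strand of the gene. Capitals mark matches on either strand to the GGTCA core of estrogen response elements or to the full element (GGTCA and TGACC facing each other with 3 bases between). They also mark the AP-1 pattern TGANTCA, where N is any base, the Sp1 site GGGCGG and the TATA box TATAAA. The core lies within the full element, and no match overlapped another in the sequences shown. NPR3 has 2 annotated starts, and the one shown lies at chr5:32710399-32710648 on the plus strand.
NPR3: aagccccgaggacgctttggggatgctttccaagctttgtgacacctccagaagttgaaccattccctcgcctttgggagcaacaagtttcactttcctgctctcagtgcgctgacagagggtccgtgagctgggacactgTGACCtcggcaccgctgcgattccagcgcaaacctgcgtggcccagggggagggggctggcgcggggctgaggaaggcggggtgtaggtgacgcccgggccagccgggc
This window held 1 GGTCA core, 109 bases before the start, and the window of the other NPR3 start held no match. Of all 35116 promoter windows of this length, 32.6% held a core and 0.0399% held the full element, which none of the 6 member windows did. A match is a description of the letters and not of binding.

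Most genes of the natriuretic peptide system other than NPR3 did not pass the test. Of 17 measured genes of 18 listed, 4 rose, 1 fell and 12 did not pass the test with ERβ2 siRNA, where passing means a limma adjusted p no higher than 0.1. Over all clusters 17.6% passed as higher and 16.9% as lower. The median change of the list was 0.02, against −0.03 over all clusters. The ligand NPPC fell by 0.33 on the log2 scale (adjusted p = 0.0157 from limma, standard error 0.08), from a mean of 6.41 to 6.08. The ligand NPPB had a change of −0.04 (adjusted p = 0.611), and NPR1, the cyclase receptor of the atrial peptide, had one of −0.01 (adjusted p = 0.925). NPR2, the cyclase receptor of the C-type peptide, had no cluster with a single symbol and was not analysed here. NPPB and NPR1 had values between 3.59 and 4.28 in the 12 arrays, below the array medians.

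MME, the neprilysin protease that degrades natriuretic peptides, rose by 0.39 (standard error 0.06, adjusted p = 0.00136 from limma). GNAI1, a subunit of the inhibitory G proteins to which NPR3 couples, was the one gene of this list besides NPR3 that was called with ERβ2 siRNA (3.20% of all clusters were called higher). Its log2 value was 8.64, 8.60 and 8.58 with control siRNA and 9.40, 9.5 and 9.57 with ERβ2 siRNA, a rise of 0.88 (standard error 0.06, adjusted p = 4.1e-05). With EV GNAI1 read 9.51, 9.32 and 9.40, which overlapped the ERβ2 siRNA arrays and lay 0.80 above control siRNA (standard error 0.07, adjusted p = 6.4e-05). Like NPR3, GNAI1 was thus higher than control siRNA in both groups. The other inhibitory subunits listed had lower means with EV than with control siRNA. GNAI2 changed there by −0.29 and −0.75 on its 2 clusters (adjusted p = 0.00931 and 1.7e-04 from limma). GNAI3 changed there by −0.11 (adjusted p = 0.167) and rose by 0.27 with ERβ2 siRNA (adjusted p = 0.00882), where GNAI2 did not pass. From control siRNA to EV 2 genes of the list rose, 2 fell and 13 did not pass. Over all clusters 18.8% passed as higher and 22.0% as lower. No gene of the list passed with the ERβ2 plasmid, where 0.0104% of all clusters passed as higher and 0.00% as lower.

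ARSJ had SDs of at most 0.06 in every group and showed the same order of groups as NPR3, apart from its plasmid arrays. Its log2 value was 6.68, 6.58 and 6.56 with control siRNA, 8.41, 8.40 and 8.42 with ERβ2 siRNA, 7.80, 7.80 and 7.83 with EV, and 7.85, 7.82 and 7.83 with the ERβ2 plasmid. No array of either siRNA group overlapped another group, and the plasmid groups shared the value 7.83. The rise with ERβ2 siRNA was 1.80 (standard error 0.06), or 3.49-fold, and the EV arrays lay 1.20 above control siRNA (standard error 0.06), or 2.30-fold. The SD was 0.06 with control siRNA, 0.01 with ERβ2 siRNA, 0.02 with EV and 0.02 with the ERβ2 plasmid (n = 3 each).

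The window before the start of ARSJ lies at chr4:113979648-113979897 on the minus strand of GRCh38.p14.
ARSJ: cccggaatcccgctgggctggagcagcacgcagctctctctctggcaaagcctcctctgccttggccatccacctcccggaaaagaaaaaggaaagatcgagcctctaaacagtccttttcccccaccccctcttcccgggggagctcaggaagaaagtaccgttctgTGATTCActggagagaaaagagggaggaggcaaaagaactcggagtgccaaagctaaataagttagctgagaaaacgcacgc
It held 1 match to the AP-1 pattern TGANTCA, 82 bases before the start, with T at the position where any base was allowed. This loose pattern was found in 6.57% of all windows, and none of the other 5 member windows held it.

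The sulfatases rose more often than they fell, by smaller steps than ARSJ. Of 17 measured genes of 18 in the list of sulfatases and their activators, other than ARSJ, 9 rose, 3 fell and 5 did not pass the test with ERβ2 siRNA. The median change was 0.16, against 17.6% higher, 16.9% lower and a median of −0.03 over all clusters. ARSI, a close relative of ARSJ, rose by 0.49 (standard error 0.07, adjusted p = 0.00152 from limma), from 6.64, 6.66 and 6.81 to 7.11, 7.29 and 7.19. In contrast to ARSJ, ARSI lay lower with EV than with control siRNA (6.32, 6.62 and 6.38, change −0.26, standard error 0.09, adjusted p = 0.0593). ARSK, a lysosomal sulfatase, was the one gene of this list besides ARSJ that was called, where 3.20% of all clusters were called higher. Its rise was 0.67 (standard error 0.08, adjusted p = 7.0e-04 from limma). With EV ARSK lay 0.49 above control siRNA (standard error 0.10, adjusted p = 0.00830).

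ARSB, the lysosomal enzyme that acts on dermatan and chondroitin sulfate, had a change of −0.16 with ERβ2 siRNA (adjusted p = 0.0925 from limma). SUMF1, which activates sulfatases by converting a cysteine of their active site, rose by 0.29 (adjusted p = 0.0639), and its relative SUMF2 by 0.16 (adjusted p = 0.0564). Between EV and control siRNA 7 genes of this list rose, 2 fell and 8 did not pass, against 18.8% higher and 22.0% lower over all clusters. The 3 of them called there, where 5.63% of all clusters were called higher, were ARSA (0.74), STS (0.66) and SULF2 (0.97), which are named after their values were seen. None of the list passed with the ERβ2 plasmid.

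**Figure D2:**
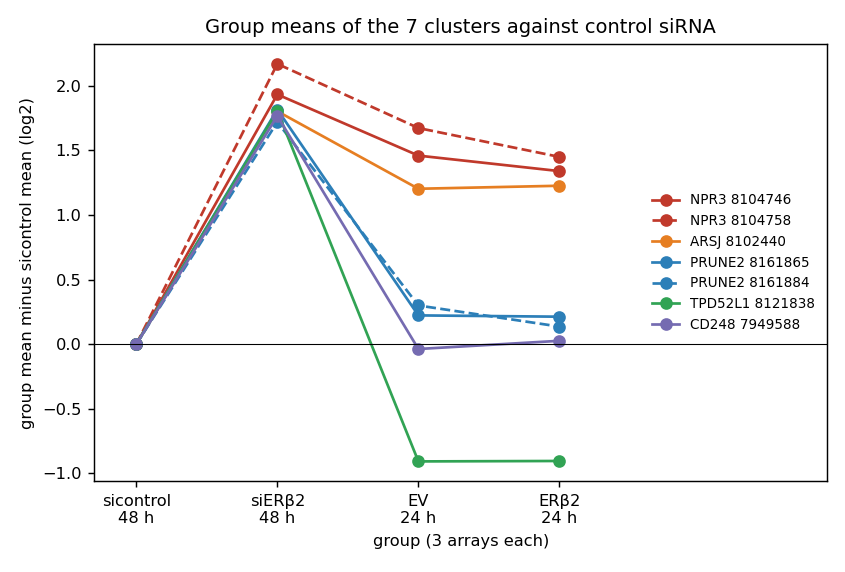
Group mean of each of the 7 clusters minus its control siRNA mean (y axis, log2) in the 4 groups (x axis, 3 arrays each), with dashed lines for the second clusters of NPR3 and PRUNE2. With ERβ2 siRNA all 7 lie between 1.72 and 2.17, and with EV they part, from 1.67 (NPR3, cluster 8104758) to −0.91 (TPD52L1).

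PRUNE2 rose with ERβ2 siRNA and stayed close to its control siRNA level in the plasmid groups. On cluster 8161865 the log2 value of PRUNE2 was 6.65, 6.75 and 6.73 with control siRNA, 8.50, 8.54 and 8.54 with ERβ2 siRNA, 6.83, 7.13 and 6.84 with EV, and 7.13, 6.84 and 6.80 with the ERβ2 plasmid. On cluster 8161884 it was 6.39, 6.71 and 6.53 with control siRNA, 8.25, 8.30 and 8.24 with ERβ2 siRNA, 6.74, 7.09 and 6.70 with EV, and 6.90, 6.46 and 6.68 with the ERβ2 plasmid. The same 2 arrays, EV replicate 2 and ERβ2 plasmid replicate 1, were the highest of their groups on both clusters. The ERβ2 siRNA arrays lay at least 1.15 above the highest EV array on either cluster.

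The rise of PRUNE2 with ERβ2 siRNA was 1.82 (standard error 0.06) on cluster 8161865 and 1.72 (standard error 0.08) on cluster 8161884, or 3.52-fold and 3.29-fold. From control siRNA to EV the clusters moved by 0.22 (95% confidence interval 0.02 to 0.43, standard error 0.09) and 0.30 (interval 0.03 to 0.57, standard error 0.12). The EV arrays lay above all control siRNA arrays on the first cluster and overlapped them on the second. Without EV replicate 2 these changes were 0.13 and 0.18, so part of the difference came from that array. Both clusters differed by a root mean square of 0.10 over the 12 arrays, the smallest distance between any of the 7 clusters.

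The annotation gives PRUNE2 2 starts as well. The window of the start farther from the 3′ end of the gene lies at chr9:76906115-76906364 on the minus strand of GRCh38.p14, and is shown for its repeated matches.
PRUNE2: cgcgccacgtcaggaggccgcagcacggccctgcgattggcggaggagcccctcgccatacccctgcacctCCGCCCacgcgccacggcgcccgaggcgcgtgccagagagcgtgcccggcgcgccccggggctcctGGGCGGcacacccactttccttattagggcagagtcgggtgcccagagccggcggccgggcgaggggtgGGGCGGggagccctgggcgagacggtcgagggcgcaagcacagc
It held 3 Sp1 sites, at 179, 113 and 44 bases before the start, while 42.6% of all windows held at least 1. Its GC content was 76.4%, against a median of 58.0% over all windows, and the window of the other PRUNE2 start (GC content 48.0%) held no match.

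The relatives of PRUNE2 moved in both directions, by less than PRUNE2 itself. Of 5 measured genes of 7 in the list of PRUNE and BCH domain proteins, other than PRUNE2, 2 rose, 2 fell and 1 did not pass with ERβ2 siRNA, and none was called. The shares over all clusters were 17.6% higher and 16.9% lower, with 3.20% called higher. PRUNE1, a phosphatase of short polyphosphates and a paralog of the N-terminal part of PRUNE2, had values of 8.04, 8.08 and 8.01 with control siRNA and 7.60, 7.59 and 7.83 with ERβ2 siRNA, a change of −0.37 (adjusted p = 0.00777 from limma, standard error 0.08). With EV it lay still lower, at 7.46, 7.57 and 7.20 (change −0.63, standard error 0.09, adjusted p = 0.00140). PRUNE1 thus moved down in both groups while PRUNE2 moved up with ERβ2 siRNA. BNIP2, which shares the BCH domain, rose by 0.17 (standard error 0.06, adjusted p = 0.0681). PCA3, a noncoding RNA antisense to PRUNE2, had no cluster with a single symbol and was not analysed here.

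TPD52L1 was the one member with a lower level in the plasmid groups than with control siRNA. Its log2 value was 7.19, 7.13 and 7.18 with control siRNA, 9.01, 8.98 and 8.93 with ERβ2 siRNA, 6.29, 6.36 and 6.13 with EV, and 6.12, 6.31 and 6.36 with the ERβ2 plasmid. The siRNA groups overlapped with no other group, and every plasmid array lay below every control siRNA array. The rise with ERβ2 siRNA was 1.81 (standard error 0.05), or 3.5-fold, and the change from control siRNA to EV was −0.91 (standard error 0.07), which put EV 1.87-fold lower. The ERβ2 siRNA mean was thereby 2.71 above the EV mean, the widest such gap among the 7 clusters, next to 0.47 for NPR3 on cluster 8104746. The order was ERβ2 siRNA, control siRNA, and then the plasmid groups, whose means of 6.26 and 6.26 did not differ beyond their spread.

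The window before the start of TPD52L1, at chr6:125153996-125154245 on the plus strand of GRCh38.p14, held none of the motifs and is shown for comparison with the other members.
TPD52L1: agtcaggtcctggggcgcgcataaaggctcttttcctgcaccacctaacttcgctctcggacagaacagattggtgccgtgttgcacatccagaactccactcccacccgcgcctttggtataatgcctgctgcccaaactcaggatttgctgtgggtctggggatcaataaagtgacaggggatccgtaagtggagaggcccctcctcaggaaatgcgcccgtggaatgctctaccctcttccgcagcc
TATA boxes were found in 10.7% of all windows and in none of the 6 member windows. CD248 has no sequence in the promoter table.

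None of the relatives and partners of TPD52L1 rose with it. Of 5 measured ones, TPD52 and the partners MAL2 and MAP3K5 fell, while the relatives TPD52L2 and TPD52L3 did not pass with ERβ2 siRNA. The median of the list was −0.22, against −0.03 over all clusters, of which 17.6% passed as higher and 16.9% as lower. TPD52 changed by −0.22 (adjusted p = 0.0393 from limma, standard error 0.07) and TPD52L2 by 0.06 (adjusted p = 0.485, 95% confidence interval −0.07 to 0.19). MAP3K5, a stress kinase that TPD52L1 binds, fell by 0.40 on the log2 scale (adjusted p = 0.00739, standard error 0.08).

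MAL2, a membrane protein of transcytosis that binds the D52 family, ran opposite to TPD52L1 in both comparisons with control siRNA. Its log2 value was 6.79, 6.67 and 6.72 with control siRNA, 5.91, 6.09 and 5.90 with ERβ2 siRNA, and 8.88, 8.69 and 8.77 with EV. None of these groups overlapped. The change was −0.76 with ERβ2 siRNA (standard error 0.07, adjusted p = 1.5e-04 from limma) and 2.05 from control siRNA to EV (standard error 0.07, adjusted p = 2.4e-07).

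CD248 rose with ERβ2 siRNA and was level across the 3 other groups. Its log2 value was 5.10, 5.45 and 5.31 with control siRNA, 7.18, 6.88 and 7.10 with ERβ2 siRNA, 5.04, 5.38 and 5.33 with EV, and 5.37, 5.36 and 5.21 with the ERβ2 plasmid. The 9 arrays without ERβ2 siRNA all lay between 5.04 and 5.45, near the array medians, and their 3 groups overlapped. The rise was 1.77 (standard error 0.11), or 3.40-fold, and the change from control siRNA to EV was −0.04 (standard error 0.12, 95% confidence interval −0.30 to 0.23), where the sign turned when EV replicate 1 or control siRNA replicate 2 was left out.

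The C-type lectins of the same group as CD248 did not pass the test, and they lay below the array medians in every array. Their log2 values were 3.59 to 3.93 (CD93), 3.96 to 4.47 (CLEC14A) and 4.28 to 4.93 (THBD). CD93 had a change of −0.17 with ERβ2 siRNA (adjusted p = 0.131 from limma), CLEC14A of −0.20 (adjusted p = 0.156) and THBD, thrombomodulin, of −0.07 (adjusted p = 0.589). MMRN2, a matrix protein that binds CD93 and CLEC14A, had a change of 0.02 (adjusted p = 0.924) and also lay below the array medians (4.08 to 4.55). Of the 8 measured relatives and ligands of CD248, 3 rose, none fell and 5 did not pass, against 17.6% higher and 16.9% lower over all clusters. COL1A1, the collagen I chain that CD248 binds, was the one that was called, from 6.77, 6.81 and 7.0 to 7.58, 7.54 and 7.51, a rise of 0.68 (standard error 0.07, adjusted p = 2.8e-04). With EV COL1A1 read 8.14, 8.36 and 8.28, above every siRNA array, unlike CD248. The other collagen I chain, COL1A2, rose by 0.66 with ERβ2 siRNA. Its change from control siRNA to EV was −0.007 (standard error 0.07, adjusted p = 0.948 from limma), near that of CD248.

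Of 13 genes known from pericytes, fibroblasts and other mesenchymal cells, 8 rose, none fell and 5 did not pass with ERβ2 siRNA, with a median change of 0.38, against 17.6% higher, 16.9% lower and a median of −0.03 over all clusters. MCAM, an adhesion molecule, rose by 1.1 (standard error 0.12, adjusted p = 3.1e-04 from limma), PDGFRA, a growth factor receptor of fibroblasts, by 0.77 (standard error 0.06, adjusted p = 6.3e-05), ACTA2, smooth muscle actin, by 0.73 (standard error 0.05, adjusted p = 5.0e-05) and COL1A2, the other collagen I chain, by 0.66 (standard error 0.06, adjusted p = 9.3e-05). From control siRNA to EV 8 of the 13 also rose and none fell, with a median of 0.40, against 18.8% higher, 22.0% lower and a median of −0.06 over all clusters. The mean log2 value over the list was 6.82 to 6.88 with control siRNA and 7.17 to 7.26 with ERβ2 siRNA. It was 7.26 to 7.39 with EV and 7.27 to 7.36 with the ERβ2 plasmid. The highest ERβ2 siRNA array (7.2554) lay just below the lowest EV array (7.2615). The genes differed in their order. THY1, FAP, ACTA2, MCAM, DCN and COL1A2 had lower means with EV than with ERβ2 siRNA, and the other genes of the list had higher ones. ACTA2 had a mean of 11.19 with EV against 11.51 with ERβ2 siRNA, COL1A2 9.13 against 9.79 and POSTN 8.06 against 6.94. In every array 10 of the 13 lay above the array median, among them RGS5 (5.84 to 7.16), CSPG4 (5.48 to 6.67) and FAP (5.26 to 5.88). RGS5 rose by 0.36 (adjusted p = 0.0196 from limma) and FAP by 0.38 (adjusted p = 0.00436) with ERβ2 siRNA. The other 3 of the 13, PDGFRB (4.06 to 4.33), DCN (3.23 to 3.56) and LUM (3.0 to 3.41), lay below the array median in every array. Since that median covers clusters named or not, a value just above it need not be high among named ones. With control siRNA a mean of 5.37 was higher than 41.2% of the clusters with 1 symbol. Every array was made from the BT549 cell line, so the list names genes known from such cells, and no other cell type was sampled. Any link between this list and the rise of CD248 was not tested.

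**Figure D3:**
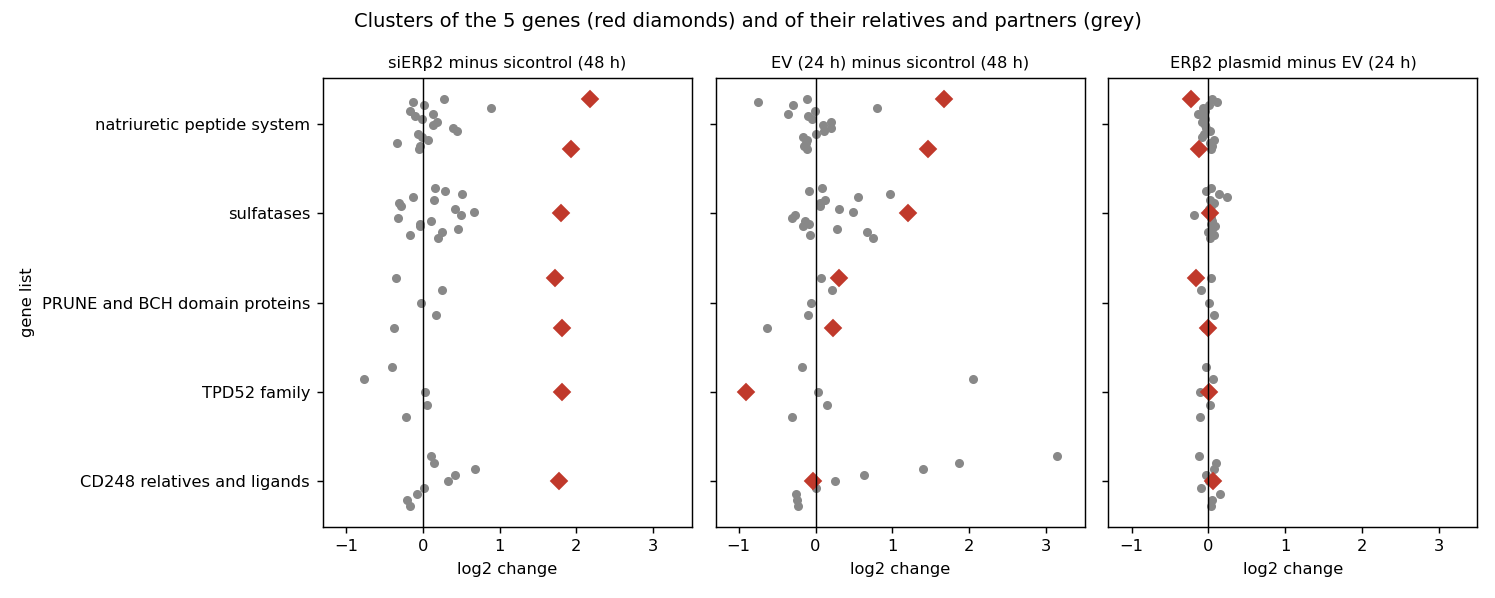
Log2 change (x axis) of the clusters of the 5 genes (red diamonds) and of the other genes of their lists (grey points, 1 per cluster), by list (y axis), in 3 comparisons. With ERβ2 siRNA the diamonds lie to the right of every relative, with EV against control siRNA only some do, and with the ERβ2 plasmid all points lie near 0.

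ERβ2 plasmid and EV arrays were compared to ask whether a rise of the receptor moved these genes the other way, on arrays that played no part in their choice. None of the 7 clusters was called in limma, none had an unadjusted p under 0.05 there or in the methods' t-test, and both groups overlapped in all 7. Over all clusters 0.00% were called in this comparison, 7.02% had an unadjusted p under 0.05 in limma, and 11.9% did not overlap. The changes ran from −0.22 to 0.06 with a median of −0.01, against −0.0033 over all clusters. The NPR3 change was −0.12 (adjusted p = 0.890 from limma, standard error 0.12) on cluster 8104746 and −0.22 (adjusted p = 0.804, standard error 0.13) on cluster 8104758. Without EV replicate 2 they became 0.02 and −0.14.

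ARSJ changed by 0.02 with the ERβ2 plasmid (adjusted p = 0.949 from limma, standard error 0.05, 95% confidence interval −0.09 to 0.14), and TPD52L1 by 0.0033 (standard error 0.09, interval −0.19 to 0.20, adjusted p = 0.992). PRUNE2 changed by −0.01 (standard error 0.11, interval −0.27 to 0.25) and −0.16 (standard error 0.13, interval −0.47 to 0.15) on its 2 clusters. Without EV replicate 2 these became 0.09 and −0.04, and on cluster 8161884 the change ran from −0.27 to −0.04 when any 1 array was left out. CD248 changed by 0.06 (standard error 0.10, interval −0.16 to 0.29, adjusted p = 0.930). The widest of the 7 intervals, that of NPR3 on cluster 8104758, reached −0.53, while the smallest rise with ERβ2 siRNA was 1.72. The difference between the siRNA effect and the plasmid effect was from 1.70 (CD248, standard error 0.16) to 2.39 (NPR3 on cluster 8104758, standard error 0.16), and was not tested, since it holds the comparison that chose the genes.

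**Figure D4:**
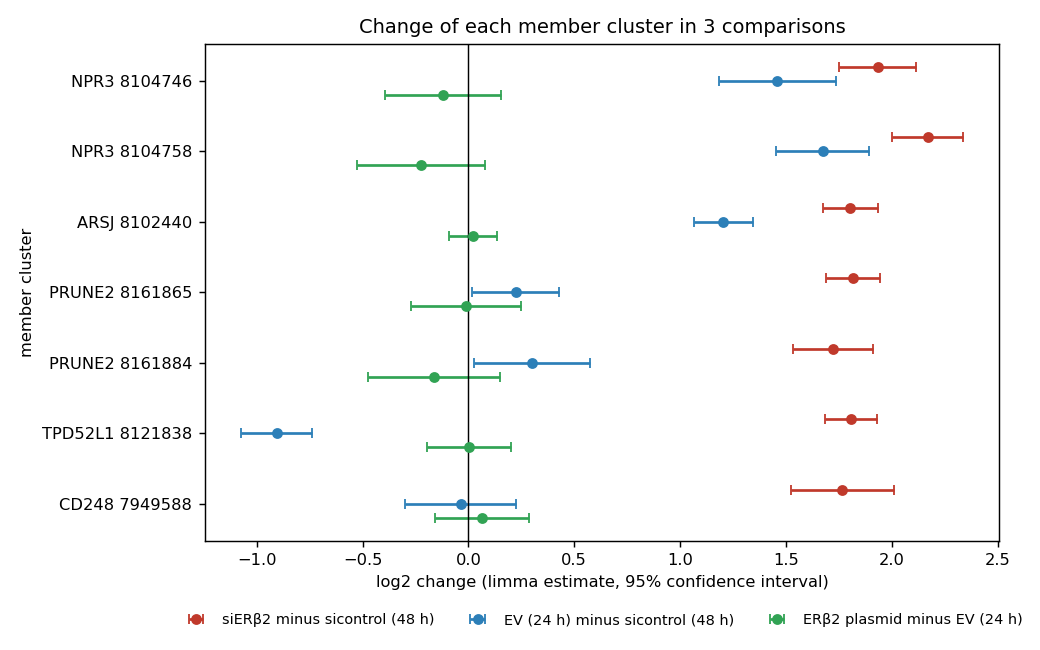
Log2 change of each member cluster (limma estimate, point) with its 95% confidence interval (bar) in 3 comparisons. The ERβ2 siRNA changes lie from 1.72 to 2.17, all 7 plasmid intervals include 0, and the changes from control siRNA to EV run from −0.91 (TPD52L1) to 1.67 (NPR3).

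EV and control siRNA arrays differ in time, reagent and nucleic acid together, and the shares of these cannot be told apart. The control siRNA arrays are those the genes were chosen on, so no p is given for the members. EV arrays lay above all control siRNA arrays in 4 member clusters (20.7% of all clusters) and below them in 1 (26.1%), and nothing is read from these counts, since the control arrays took part in the choice. The median over the members was 0.30, against −0.06 over all clusters, and the members ranked from 139 (NPR3 on cluster 8104758) to 19135 (TPD52L1) of 19181 by their change. The interferon-induced genes stood apart in the same comparison. All 10 listed ones rose, by 3.29 (ISG15) to 6.81 (IFI44L) on the log2 scale, where 18.8% of all clusters passed as higher. With ERβ2 siRNA 1 rose, 1 fell and 8 did not pass, against 17.6% higher and 16.9% lower over all clusters. The part of the interferon-induced genes in the levels of NPR3, ARSJ and TPD52L1 was not tested.

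The genes most like each member over the 12 arrays were found by the root mean square difference of their log2 profiles, each set to 0 at its control siRNA mean. GPAT3, an enzyme of glycerolipid synthesis, and TGFB3, a growth factor, were nearest to NPR3 on both clusters, at 0.17 and 0.18 on cluster 8104746, and ARSJ was next. For ARSJ they were RASA2, a GTPase-activating protein of Ras (0.13), CARNMT1, which methylates carnosine (0.16), and NPR3 (0.19). For PRUNE2 they were MXRA5, a matrix protein (0.18 and 0.15 on the 2 clusters), CD248 (0.20 and 0.23) and VLDLR, a lipoprotein receptor (0.28 and 0.27). For CD248 they were both PRUNE2 clusters and VLDLR (0.25). Among the 5 genes NPR3 thus lay nearest to ARSJ and PRUNE2 to CD248, with TPD52L1 apart. The profiles hold the siRNA arrays that chose the members, so nothing is read from closeness on those arrays. For every member but CD248 the nearest gene lay outside the 5.

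TPD52L1 had no close match. The nearest gene was KRT18, a keratin of simple epithelia, at 0.50 on cluster 8154725, followed by PFKFB4, an enzyme that sets the rate of glycolysis (0.52), and MIR503, a microRNA gene (0.52). KRT18 has many processed pseudogenes, so the source of its signal on a single cluster is uncertain. The other KRT18 cluster, 7955637, changed by 0.63 with ERβ2 siRNA (standard error 0.06) and by −1.01 from control siRNA to EV (standard error 0.09). On cluster 8154725 KRT18 read 10.41, 10.03 and 10.24 with control siRNA, 11.15, 11.10 and 11.06 with ERβ2 siRNA and 9.20, 9.64 and 9.16 with EV. Both clusters thus had the same order of these groups as TPD52L1, without overlap. The partner keratin of KRT18, KRT8, rose by 0.78 with ERβ2 siRNA (standard error 0.10, adjusted p = 8.7e-04 from limma) and was lower with EV than with control siRNA (log2 change −0.59, standard error 0.15, adjusted p = 0.0175). Of the 10 luminal and epithelial genes listed, 2 rose and 1 fell with ERβ2 siRNA and 7 did not pass, and EPCAM, CDH1 and ESR1 were among those that did not. The shares over all clusters were 17.6% higher and 16.9% lower.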

How the data were processed

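BT549 RNA was measured on Affymetrix Human Gene 1.1 ST arrays, with 3 biological replicates for every one of the 4 groups. The deposited values are log2 values with 2 decimals, made by the authors with RMA in the Affymetrix Expression Console, of a version that no source used here gives. Base 2 was assumed for the logarithm, which the sources leave unstated. Precision is limited by the number of arrays.

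The platform's probe annotation supplied the gene symbols, with 1 symbol for 19181 of 33297 clusters, several for 2055 and no entry for 12061. Symbols were updated by gene ID, found for 19143 clusters, in a RefSeq table of GRCh38.p14. All 19181 clusters entered each fit, since members have up to 2 clusters, and no dim clusters were left out. List counts use 1 cluster per gene, that with the highest mean.

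Groups were compared 2 at a time with limma 3.58.1 in R 4.3.3 (lmFit, eBayes), with Benjamini-Hochberg adjustment over all clusters. The difference of effects came from 1 fit over 12 arrays. The paper's own tests, Student's t-test with q-values, were run as an alternative and are called the methods' t-test, with the share of true nulls taken from p-values above 0.5. Simulated data with known changes were used to check the fits.

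The members, the gene lists and the motifs were chosen with earlier results of these data known. Named genes besides the members are up to 4 genes per list called with ERβ2 siRNA or the ERβ2 plasmid, a fixed set of relatives, and the 3 nearest genes of each cluster. Further genes (ISG15, IFI44L, MAP3K5, TPD52L3, RGS5, CSPG4, FAP, GNAI2, GNAI3, the sulfatases called with EV and the marker genes checked) were named after their values were seen.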

Additional observations from a re-analysis of the deposited data

How the results depend on the processing

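With 3 arrays per group, no member cluster was called with the ERβ2 plasmid under any of 19 alternatives, among them another choice of clusters (1 per gene, or all clusters whether named or not), a filter on dim clusters (mean log2 value of at least 5), other normalizations, the methods' t-test and leaving out each array in turn. Over all clusters, 0 were called there, but 1 was after cyclic loess, 1 after centring of arrays on their medians, 2 when the fold cut-off was dropped, 2 with an intensity trend and a robust prior and 4 without EV replicate 2. On PRUNE2 cluster 8161865 the plasmid effect of −0.01 turned to 0.017 with quantile normalization again, to 0.020 after cyclic loess and to 0.013 with centring. When 1 array was left out, it ran from −0.11 to 0.088, that of NPR3 cluster 8104746 from −0.22 to 0.017, that of TPD52L1 from −0.062 to 0.075 and that of CD248 from −0.042 to 0.13. For EV against control siRNA, CD248 ran from −0.13 to 0.068. The median rise with ERβ2 siRNA lay between 1.76 and 1.86 in all settings. With the replicate number as a block, 0 members were called with the ERβ2 plasmid, as without it. Same-numbered siRNA arrays deviated together with correlations of 0.23, 0.14 and 0.014, and replicate 3 correlated better with another number, so the numbers were not taken to pair the arrays.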

Other observations

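The genes that lie next to the members on the chromosome were compared as values, since no other comparison uses them. For each member the nearest measured protein-coding gene on either side in the RefSeq table was taken, 10 genes in all, a choice made after the values of the members were seen. With ERβ2 siRNA 5 of the 10 rose, none fell and 5 did not pass, and 2 were called higher. Over all clusters 17.6% passed as higher, 16.9% passed as lower and 3.20% were called higher. GCNT1, an enzyme that branches O-glycans and lies next to PRUNE2 on chromosome 9, went from a mean log2 value of 6.41 to 7.51, a rise of 1.1 (standard error 0.06, adjusted p = 1.6e-05 from limma). FOXB2, on the other side of PRUNE2, had a change of −0.11 (adjusted p = 0.407). RNF217, a ubiquitin ligase next to TPD52L1 on chromosome 6, rose by 0.78 (standard error 0.07, adjusted p = 1.5e-04), and HDDC2, on its other side, by 0.41 (standard error 0.06, adjusted p = 0.00108). RIN1, next to CD248, rose by 0.25 (adjusted p = 0.0330) and SUB1, next to NPR3, by 0.17 (adjusted p = 0.0643). TARS1, on the other side of NPR3, had a change of 0.05 (adjusted p = 0.50), and both neighbours of ARSJ, CAMK2D (−0.02) and UGT8 (0.09), did not pass.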
